A study of Mus musculus with 22 samples.

Results

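The end points of a direct conversion of mouse embryonic fibroblasts (MEFs) into neural progenitor cells (NPCs) were compared: 2 libraries from a line labelled giNPC at passage 6 and 2 libraries from the culture at day 1 of the induction. These are 4 of the 22 RNA-seq libraries of the series, which holds 11 groups of 2 and was made from C57BL/6 mice. The day 1 cells are labelled as MEFs in the induction process, so they had already been under induction for a day and were not untouched fibroblasts. The giNPC P6 cells are labelled as an established line. The labels do not spell out the prefix "gi", do not name the agents used for the induction and do not say whether the line came from 1 clone. They also do not say whether the paired libraries came from separate cultures or separate inductions. Every p-value below therefore measures only spread between paired libraries, estimated over all 11 groups of the series together. Values of NPCs derived from neonatal brain (Brain-NPC, 2 libraries) are set beside some genes as a reference, and no test was made against them. The comparison asks how far the RNA profile of the line stood from that of the day 1 culture.

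Fibroblasts are mesenchymal cells that secrete fibrillar collagens, fibronectin and the enzymes that crosslink and cut them, and that carry actin stress fibres. Neural progenitors of the radial glia type are kept from becoming neurons by Sox factors and Notch signalling, carry transporters and binding proteins for glutamate and lipids, and share many genes with astrocytes. When kept in culture such cells divide in response to fibroblast growth factor (FGF) and epidermal growth factor (EGF), and they can give rise to neurons, astrocytes and oligodendrocytes.

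The day 1 libraries held 6256721 and 5443723 reads assigned to transcripts and the giNPC P6 libraries 5537606 and 6525812, within the range of 3084428 to 9689996 over the series. Genes with 1 transcript in the annotation were measured as CPM, read counts scaled to the size of the library, and genes with several transcripts as FPKM, fragments scaled to library size and transcript length, because the deposited counts lack most reads of the latter. A gene was called higher or lower in the line when its adjusted p was under 0.05 and its change was at least 2-fold, with edgeR's quasi-likelihood test for CPM and limma for FPKM. Values of pairs of libraries are given in the order replicate 1, replicate 2, and ± stands for the standard error of a log2 difference. In these bulk samples, fewer cells of a type and less RNA per cell cannot be told apart.

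The giNPC P6 libraries stood apart from each other more than the other pairs used here. By counts, 9048 genes with 1 or several transcripts had a mean of 10 CPM or more over the whole series. Of these, 193 differed by over 4-fold between the 2 giNPC P6 libraries, against 32 between the day 1 libraries and 4 between the Brain-NPC libraries. The other groups of the series ranged from 0 (Teratoma) to 91 (day 7). Since the tests share 1 estimate of spread over all groups, they can understate the spread of giNPC P6. The plot of replicate against replicate shows the genes with 1 transcript. Genes of the sex chromosomes were left out of the comparison, and they also split the line. Xist, the RNA of the inactive X chromosome, stood at 727 CPM in giNPC P6 replicate 1 and 24.7 CPM in replicate 2, against 0 and 0.368 CPM at day 1. The Y-linked gene Eif2s3y was at 0 CPM in giNPC P6 replicate 1 and at 103 CPM in replicate 2, and at 131 and 148 CPM at day 1, while Ddx3y was present in both giNPC P6 libraries at 26.9 and 92.2 CPM. The sex-linked genes of the 2 libraries of the line thus did not match each other. Those of giNPC P6 replicate 1 did not match the day 1 libraries either, and Xist in replicate 2 was also above day 1. Whether the line descended from the day 1 culture sequenced here was not tested. Where a fitted log2 difference is printed for a gene and moved by over 1.5 times without 1 library, the value without that library follows it. Genes with few or no reads in a group are given by their levels alone, because a fitted difference then depends on single reads. Among 771 genes of the lists and named by rule, the fitted fold of 274 moved so far, 205 of them through a giNPC P6 library.

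**Figure D1:**
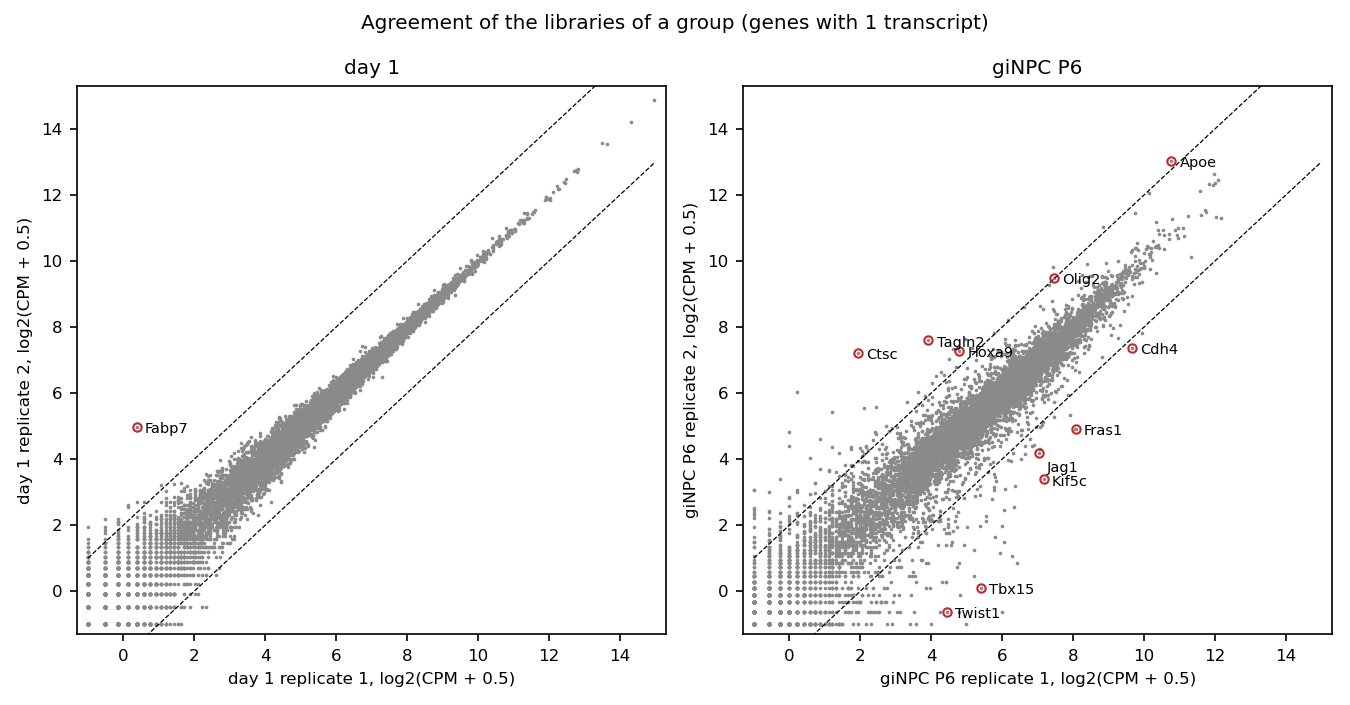
Replicate 1 (x axis) against replicate 2 (y axis) as log2(CPM + 0.5) for genes with 1 transcript, with day 1 and giNPC P6 in separate panels; the dashed lines mark a 4-fold difference. Counted over 9048 genes with 1 or several transcripts and a series mean of 10 CPM or more, which are not the same set as the points drawn, 193 differed by over 4-fold in giNPC P6 and 32 at day 1.

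Of 15690 genes tested, 3515 were called higher in the line (22.4%) and 3033 lower (19.3%). Of these 6548 genes, 6505 had no overlap between the day 1 and the giNPC P6 libraries. Over all genes tested, 40.6% had both giNPC P6 libraries above both day 1 libraries and 35.8% below them. Among 1-transcript genes, 22.5% were called higher and 20.8% lower, with 38.6% and 36.2% free of overlap, and among several-transcript genes 21.9% and 13.5%, with 48.8% and 34.1%. Changes were large: 1206 genes were over 8-fold higher and 1307 over 8-fold lower, while the median log2 difference of all genes tested was 0.01. A further contrast was between absence and presence, with 75 genes that had no counts at day 1 and at least 10 CPM in both giNPC P6 libraries, and 111 genes with the reverse. Because about 4 in 10 genes were called, the counts of gene groups below are read against 22.4% higher and 19.3% lower. The lists were chosen with earlier results of these data known, so these shares give a scale only. The counts of list members describe the lists and test nothing.

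**Figure D2:**
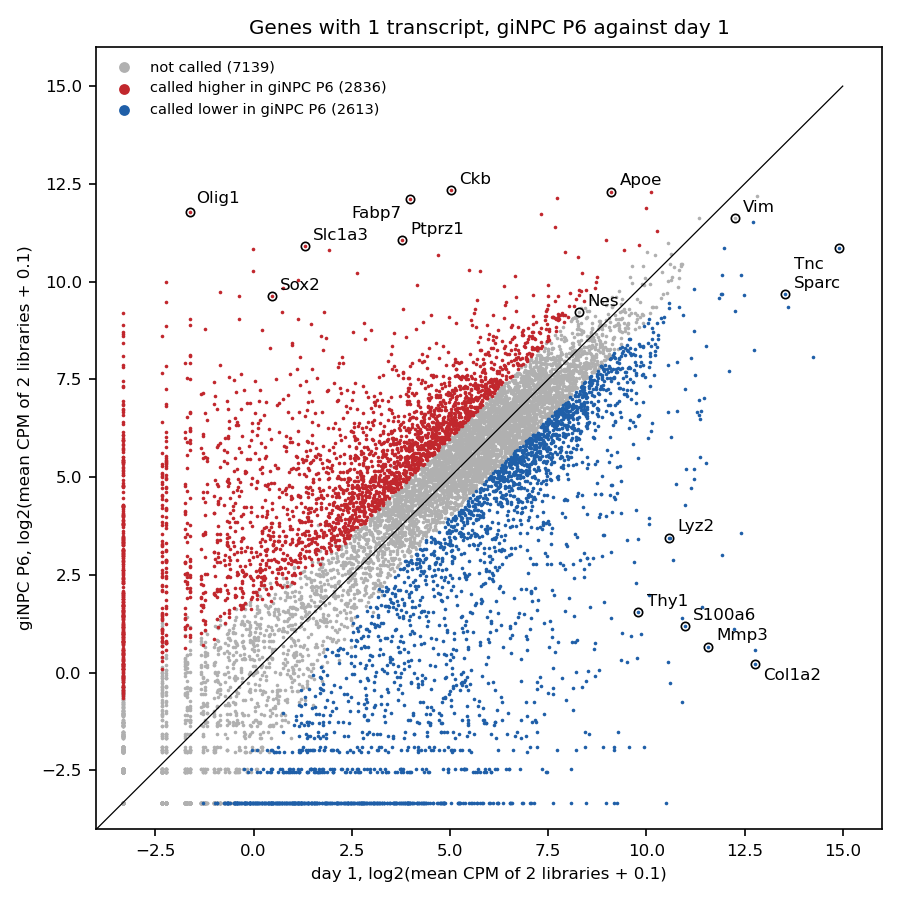
Mean level of each of the genes with 1 transcript at day 1 (x axis) and in giNPC P6 (y axis), both as log2(mean CPM + 0.1), with called genes coloured (2836 higher, 2613 lower). Sox2, Olig1 and Slc1a3 lie far above the diagonal, Thy1, Mmp3 and Col1a2 far below it, and Vim and Nes close to it.

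The most abundant RNAs differed between the groups. Per length, osteopontin (Spp1), a secreted matrix phosphoprotein, led the day 1 culture at 26770 and 26920 FPKM and stood at 15.9 and 2.10 FPKM in the line. Among transcripts of at least 300 bases it was followed at day 1 by the matrix genes Sparc and Tnc, the retinoic acid binding protein gene Crabp1, Lgals1, Ctsl and S100a6, each with a mean of 1532 FPKM or more. In the line the leading genes were the metallothionein Mt1 (mean 4797 FPKM), the brain fatty acid binding protein Fabp7 (4297 FPKM), the acyl-CoA binding protein Dbi (3277 FPKM), Apoe (2708 FPKM) and brain-type creatine kinase Ckb (2201 FPKM). Only the ribosomal protein gene Rpl41 and the elongation factor Eef1a1 were among the 10 highest in both. Mir703, one of the largest losses by FPKM, stood at 22.6 and 33.0 CPM against 2.48 and 4.47 CPM, and its FPKM is not used because it held 0.0249 of the reads that value implies.

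Fabp7, a lipid carrier of radial glia, stood at 0.793 and 30.7 CPM at day 1 and at 3673 and 5186 CPM in the line. The day 1 libraries disagreed, but neither came near the giNPC P6 libraries, and the log2 difference was 8.17 ± 0.62 (edgeR adjusted p = 2.10e-10); without day 1 replicate 1 it was 7.18 and without replicate 2 it was 12.41. Ckb, which buffers ATP in brain cells, stood at 28.8 and 36.1 CPM against 4032 and 6299 CPM (7.32 ± 0.35, edgeR adjusted p = 9.49e-14). Apoe, the lipoprotein that glia secrete, stood at 514 and 593 CPM at day 1 and at 1736 and 8368 CPM in the line. Both giNPC P6 libraries lay above day 1, with 1 of them far higher, so the log2 difference of 3.19 ± 0.43 (edgeR adjusted p = 1.34e-06) became 3.92 without giNPC P6 replicate 1 and 1.65 without replicate 2.

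The genes with the largest changes from counts were read against a floor of 3 counts over the group where a group had none. Mmd2 (chr5:143039435-143084706, mm9), a membrane protein known from glial progenitors, had no counts at day 1 and stood at 544 and 626 CPM in the line, at least 1861-fold higher (edgeR adjusted p = 4.62e-17). The oligodendrocyte-lineage factor Olig1 (chr16:91270014-91272184, mm9) had 2 reads at day 1 and stood at 4571 and 2520 CPM in the line, a ratio of 16500 with a 95% counting interval of 4568 to 136300. Mt3, Timp4, Sall3, Agt, Sez6l, Lrrc4b, Hey1 and Slc25a18 likewise had no counts at day 1 and were at least 709.5-fold to 1545-fold higher. These 8 genes had Brain-NPC means between 103 and 2175 CPM.

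At the other end stood Mmp10 (chr9:7502360-7510240, mm9), a secreted matrix protease, with 1460 and 1463 CPM at day 1 and no reads in the line, at least 6324-fold lower (edgeR adjusted p = 1.36e-16). The BMP antagonist Grem1 fell from 608 and 619 CPM to no reads, at least 2652-fold. Ptgs2, the inducible enzyme of prostaglandin synthesis, fell from 510 and 490.5 CPM to none, at least 2166-fold. The cytoskeletal regulator gene Arhgdib, the protease inhibitor Tfpi2, the mast cell protease gene Mcpt8, Lrrc15, Col8a1 and the leukocyte receptor Lilrb4 were also at 0 in both libraries of the line, at least 575.7-fold to 2503-fold lower. Genes of fibroblasts and of blood cells thus stood side by side among the largest falls.

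Among genes measured as FPKM, Bcan, the brain proteoglycan brevican, stood at 0.117 and 0.186 FPKM at day 1 and at 318 and 372 FPKM in the line. The groups lay far apart, by 8.23 ± 0.15 on the log2(FPKM + 1) scale, which understates changes of low genes (limma adjusted p = 4.19e-15). Ttyh1, a channel-like protein of neural stem cells, Nnat, an imprinted neuronatin gene, Map2, a microtubule protein, and Plekhb1 followed with log2 differences between 6.72 and 7.00; that of Plekhb1 was 7.93 without giNPC P6 replicate 1 and 6.08 without replicate 2. Postn, Dcn, Col6a3 and Rnase4 showed the largest falls after Spp1, between -9.91 and -7.58 on the same scale.

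Most transcription factors of neural progenitors were higher in the line. Of 24 such genes tested, 21 were higher and none lower, with a median log2 difference of 5.05. Of 11 Sox genes, 8 were higher and none lower, with a median of 2.09. Sox2, which maintains the progenitor state, stood at 0.992 and 1.57 CPM at day 1 and at 731 and 856 CPM in the line (9.27 ± 0.24, edgeR adjusted p = 1.28e-17). Its relative Sox1 and the Sox21 gene had no counts at day 1 and stood at 115 and 76.8 CPM and at 147.5 and 170 CPM in the line, at least 299.4-fold and 504.8-fold higher. Sox2, Sox1 and Sox21 thus separated the groups without overlap, whereas Sox9 and Sox11 were already at 77.4 CPM or more in both day 1 libraries and changed by less than 2-fold (0.78 ± 0.20 and 0.50 ± 0.19). Sox10, a factor of neural crest and oligodendrocytes, stood at 2.81 and 1.01 CPM in the line against 61.9 CPM in Brain-NPC and was not called (1.54 ± 0.74, edgeR adjusted p = 0.0806), but it passed without day 1 replicate 1 (6.49, adjusted p = 0.00593) and without giNPC P6 replicate 2 (2.12, adjusted p = 0.019), with 0.64 and 0.66 without the other library of each group.

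Pax6, a factor of forebrain and spinal progenitors, stood at 0 and 0.0319 FPKM against 23.1 and 21.0 FPKM (4.50 ± 0.13, limma adjusted p = 2.91e-13). Olig2, the partner of Olig1, stood at 0.198 and 0.449 CPM against 174 and 713 CPM (edgeR adjusted p = 2.21e-11), a ratio of 1464 with a 95% counting interval of 500.7 to 7101 since day 1 held 3 reads. The 2 libraries of the line differed in Olig2 by over 4-fold, and its fitted log2 difference was 11.05 without giNPC P6 replicate 1 and 9.01 without replicate 2. The POU factor Pou3f2 (0.198 and 0 against 198.5 and 203.5 CPM), Sall1, Sall3, Zic1 and the nuclear factor I genes Nfia and Nfib rose as well. Etv5, an FGF-responsive ETS factor, was already at 87.5 and 104 CPM and rose to 429 and 310 CPM (1.95 ± 0.21, edgeR adjusted p = 3.68e-08). The members that were not called were Hes1, at 59.1 CPM or more in all 4 libraries, Nr2e1, and Zfp536, which had no reads in any of them; Nr2e1, a factor of forebrain stem cells, stood at 0.497 and 0 CPM in the line and at 68.7 CPM in Brain-NPC.

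**Figure D3:**
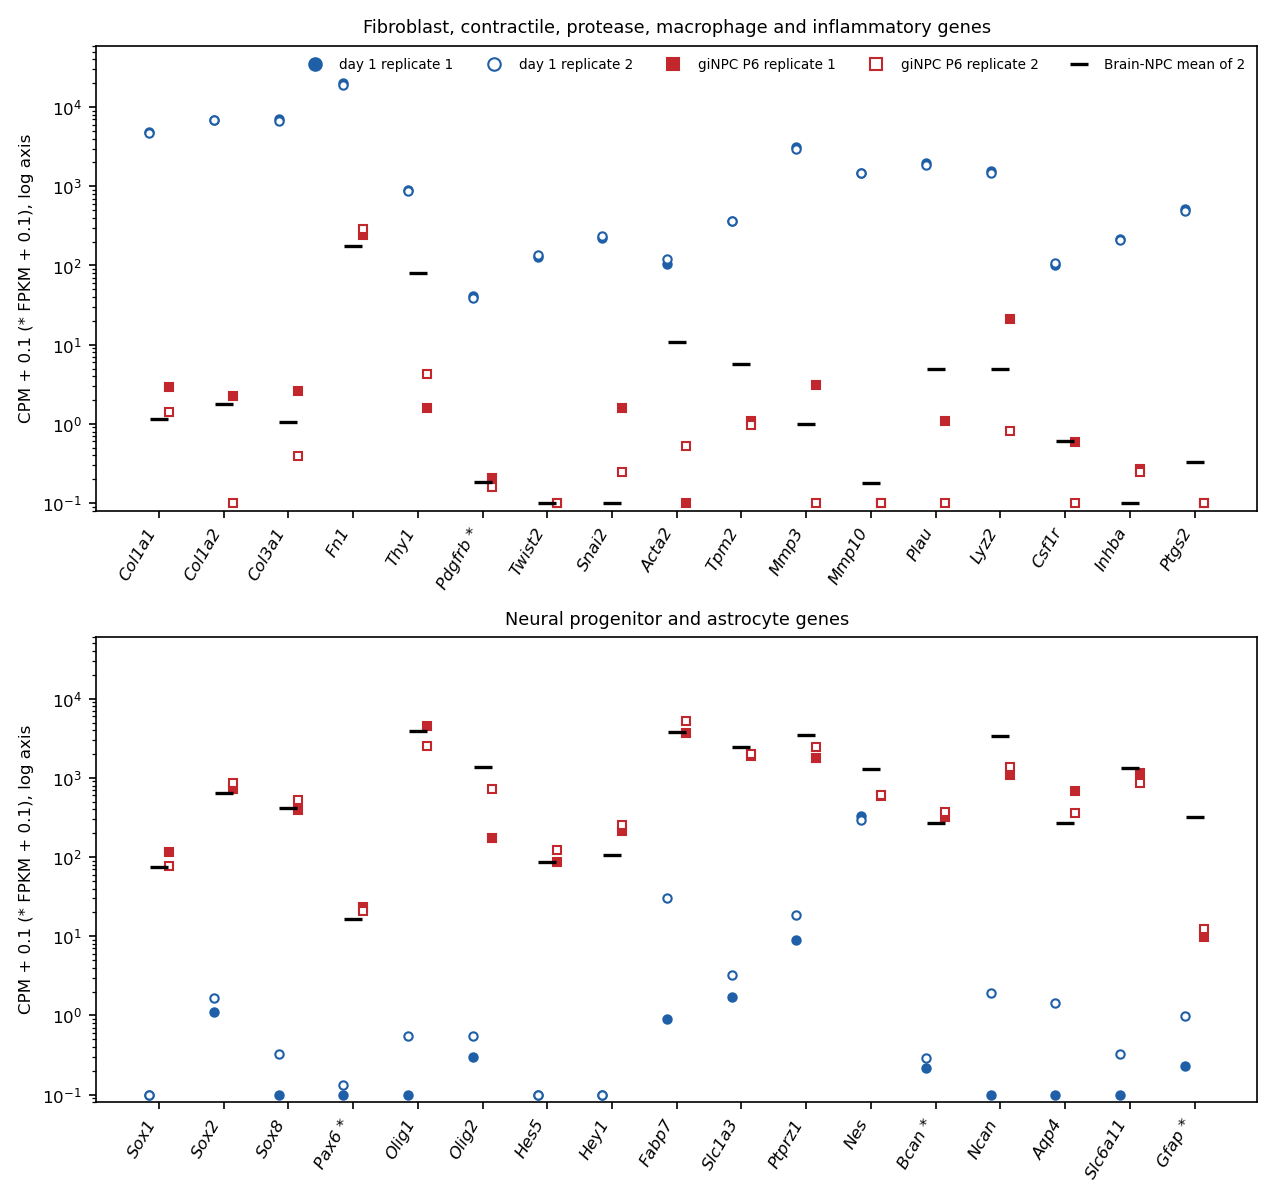
Level of selected genes in each library as value + 0.1 on a log axis (CPM, or FPKM where starred); circles are day 1, squares giNPC P6, filled symbols replicate 1, open symbols replicate 2, and the black dash is the Brain-NPC mean. For Sox2 and Slc1a3 both squares lie at least 100 times above both circles, and for Col1a1 and Thy1 the order is reversed.

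Genes of radial glia followed the same direction, with 20 of 24 higher and 1 lower (median log2 difference 4.09). Slc1a3, the glutamate transporter GLAST, stood at 1.59 and 3.14 CPM at day 1 and at 1885 and 1978 CPM in the line (9.69 ± 0.26, edgeR adjusted p = 1.68e-17). Ptprz1, a receptor phosphatase of progenitors, stood at 8.93 and 18.4 CPM against 1779 and 2473 CPM (7.30 ± 0.27, edgeR adjusted p = 1.63e-15), and at 7.89 without day 1 replicate 2. In Brain-NPC both were higher than in the line, at 2461 CPM for Slc1a3 and 3503 CPM for Ptprz1. Fut9, which makes the Lewis X sugar of neural stem cells, stood at 1.19 and 0.673 CPM against 155 and 199 CPM (7.51 ± 0.40, edgeR adjusted p = 5.04e-13). The RNA-binding protein gene Msi1 rose by 4.01 ± 0.41 (edgeR adjusted p = 2.37e-08), and Cdh2 and Ncam1, which were present at day 1, rose by 1.5 ± 0.16 and 2.50 ± 0.10.

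Intermediate filament genes that are often used as progenitor markers changed by less than 2-fold. Nestin (Nes) stood at 329 and 295 CPM at day 1 and at 590 and 608 CPM in the line, which missed the 2-fold threshold (0.94 ± 0.13, edgeR adjusted p = 1.65e-06) and passed it without day 1 replicate 1 (1.03). Vimentin (Vim) was high in all 4 libraries, at 5027 and 4687 CPM against 3406 and 2890 CPM (-0.63 ± 0.14). The progenitor surface gene Prom1 was called on 1 library, with 0.478 and 0.367 FPKM against 0.596 and 4.23 FPKM; without giNPC P6 replicate 2 the log2 difference was 0.17 (limma adjusted p = 0.524). Cspg4, the NG2 proteoglycan of pericytes and oligodendrocyte precursors, was lower in the line at 13.6 and 60.2 CPM against 162 and 143 CPM (-2.03 ± 0.37, edgeR adjusted p = 7.13e-05), and its log2 difference was -1.34 without giNPC P6 replicate 1 and -3.48 without replicate 2.

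Astrocyte genes rose in 19 of 23 cases, with a median log2 difference of 6.21, and 1 fell. The folate enzyme Aldh1l1 stood at 6.15 and 5.16 CPM at day 1 and at 469 and 375 CPM in the line (6.21 ± 0.32, edgeR adjusted p = 2.72e-13). The GABA transporter Slc6a11 had 1 read at day 1 and stood at 1161 and 863.5 CPM in the line. The water channel Aqp4 (0 and 1.35 CPM against 692 and 359 CPM), the potassium channel Kcnj10 and the membrane protein Mlc1 of astrocyte end feet were raised too. Glutamine synthetase (Glul), which turns glutamate into glutamine, was present before and rose from 47.6 and 55.9 CPM to 842 and 637 CPM (3.84 ± 0.16, edgeR adjusted p = 7.97e-15). Gfap, the filament of mature astrocytes, was higher but modest, with 0.130 and 0.874 FPKM against 9.62 and 12.3 FPKM (3.03 ± 0.42, limma adjusted p = 1.38e-05), where Brain-NPC had 324 FPKM. The gap junction gene Gja1 went the other way, from 1243 and 1277 CPM to 395 and 400 CPM (-1.67 ± 0.19, edgeR adjusted p = 1.14e-07), although the line remained near the 359 CPM of Brain-NPC.

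Isozymes and pump subunits of the same family differed in the size or the direction of their RNA change. Among sodium pump genes, the glial beta subunit Atp1b2 stood at 0.793 and 3.37 CPM against 816 and 1293 CPM (edgeR adjusted p = 5.23e-15). The other beta subunits moved in opposite directions, with Atp1b1 higher by 3.10 ± 0.19 and Atp1b3 lower by -1.62 ± 0.14. In glycolysis, brain aldolase Aldoc stood at 3.17 and 4.26 CPM against 1970 and 1642 CPM (8.93 ± 0.26, edgeR adjusted p = 4.62e-17), while the common aldolase Aldoa rose by 1.07 ± 0.19 and missed the 2-fold threshold without giNPC P6 replicate 2 (0.84). The lactate dehydrogenase subunit Ldhb, typical of oxidative tissues, rose from 18.6 and 24.0 CPM to 173 and 376 CPM (3.69 ± 0.29, or 3.02 without giNPC P6 replicate 2), and Ldha rose by 1.12 ± 0.13, or 0.90 without giNPC P6 replicate 2. Among glutamate carriers, the glial Slc1a2 and Slc1a3 and the neuronal Slc1a1 rose and the glutamine carrier Slc1a5 fell by -1.92 ± 0.25.

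Few oligodendrocyte and neuron genes reached such levels, with the neuron gene Map2 an exception. Of 17 genes of the oligodendrocyte lineage, 7 were higher and none lower (median 0.44). Cnp, an enzyme of the lineage, rose from 5.18 and 6.28 FPKM to 35.0 and 46.2 FPKM (2.62 ± 0.15, limma adjusted p = 8.56e-10), and Bcas1 from 0 and 0.146 FPKM to 19.4 and 19.9 FPKM (4.27 ± 0.13). The myelin gene Mbp stayed at 0.898 and 0.940 FPKM against 0.474 and 1.06 FPKM, and Mag, Mog, Opalin and Ermn stood under 0.5 CPM in every library. Gpr17, a marker of maturing precursors, rose from 0 and 0.449 CPM to 2.81 and 19.5 CPM (edgeR adjusted p = 3.10e-05).

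Neuron genes split, with 10 of 25 higher and 6 lower (median 0.54). Map2, a member of this list named above among the largest rises, stood at 0.322 and 0.435 FPKM against 159 and 130 FPKM (6.72 ± 0.11, limma adjusted p = 2.19e-15). The Brain-NPC mean of Map2 was 65.4 FPKM. Elavl3, an RNA-binding protein of young neurons, stood at 0.198 and 0.673 CPM against 76.7 and 35.5 CPM (6.98 ± 0.51, edgeR adjusted p = 1.06e-10), with 6.34 without day 1 replicate 1, 7.99 without day 1 replicate 2 and 6.32 without giNPC P6 replicate 1, and the GABA enzyme Gad1 at 0.198 and 0 CPM against 20.5 and 22.5 CPM. The neurofilament gene Nefm, by contrast, stood at 43.6 and 47.1 CPM at day 1 and at 0 and 1.44 CPM in the line (edgeR adjusted p = 8.31e-10), and the growth cone gene Gap43 fell from 632.5 and 669 CPM to 20.9 and 39.1 CPM (-4.43 ± 0.23, edgeR adjusted p = 3.08e-13). Tubb3, the tubulin used to stain neurons, was at 24.6 and 23.3 CPM against 39.4 and 30.3 CPM and was not called (0.54 ± 0.20). The synaptic vesicle genes Slc17a7, Slc17a6 and Slc32a1 stood under 1 CPM in all 4 libraries. The calls of Stmn2, Tbr1 and Neurog2, all at under 2 CPM, were lost when a single library was left out, with adjusted p between 0.112 and 0.331.

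Fibroblast collagen genes were nearly absent from the line. All 10 collagens of the list were lower in the line, with a median log2 difference of -9.27, or -9.08 with the gene at 0 reads set to its bound. Their summed FPKM was 3214 and 3234 at day 1 and 11.4 and 7.11 in the line. Col1a1, a chain of collagen I, stood at 4897 and 4685 CPM at day 1 and at 2.81 and 1.30 CPM in the line (-11.20 ± 0.41, edgeR adjusted p = 1.16e-15), and at -11.83 without giNPC P6 replicate 1. Col1a2, its partner chain, stood at 6954 and 6898 CPM against 2.15 and 0 CPM (edgeR adjusted p = 3.72e-16), so both chains of the protein were lower. Col6a1 of the microfibrillar collagen VI fell from 3833 and 3904 CPM to 7.62 and 8.36 CPM (-8.91 ± 0.22, edgeR adjusted p = 1.28e-17). The smallest changes were in Col5a2 (-5.79 ± 0.22) and Col12a1, which stood at 26.5 and 6.92 CPM in the line (-5.31 ± 0.33) and at -6.55 without giNPC P6 replicate 1 and -4.62 without replicate 2.

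Matrix glycoproteins and crosslinking enzymes were lower in 18 of 19 cases (median -5.96). Fibronectin (Fn1), which links collagen to integrins, fell from 20220 and 18750 CPM to 246 and 290 CPM (-6.18 ± 0.29, edgeR adjusted p = 4.78e-14). Lum, a collagen-binding proteoglycan, stood at 1542 and 1565 CPM against 1.32 and 0.144 CPM (edgeR adjusted p = 4.85e-17), and the crosslinker Lox at 193 and 175 CPM against 0.662 and 2.31 CPM (edgeR adjusted p = 4.10e-12). Sparc, a collagen chaperone outside the cell, kept a higher level than most, with 11540 and 12190 CPM against 620.5 and 1031 CPM (-3.84 ± 0.20, edgeR adjusted p = 3.06e-13). Elastin (Eln) was the member that was not called, at 79.5 and 84.1 CPM against 56.0 and 71.1 CPM (-0.36 ± 0.23, edgeR adjusted p = 0.189).

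Of 15 brain matrix genes, 7 were higher and 2 lower (median 1.89), while their summed FPKM was 2270 and 2168 at day 1 and 930.3 and 937.5 in the line, with tenascin-C the largest share at day 1. The lectican neurocan (Ncan) stood at 0 and 1.79 CPM at day 1 and at 1100 and 1383 CPM in the line (edgeR adjusted p = 2.97e-15), beside brevican above. Cspg5, a neural proteoglycan, stood at 0.146 and 0.569 FPKM against 102 and 110 FPKM (6.32 ± 0.13, limma adjusted p = 1.50e-14). The lecticans did not move as 1 family: versican (Vcan) was at 39.1 and 35.2 FPKM against 61.9 and 18.4 FPKM and was not called (-0.97 without giNPC P6 replicate 1 and 0.72 without replicate 2), and aggrecan (Acan) stood under 1 CPM throughout. Tenascin-C (Tnc), made by fibroblasts and by radial glia, fell from 31950 and 29920 CPM to 2571 and 1113 CPM (-4.07 ± 0.26, edgeR adjusted p = 8.42e-12), with -4.80 without giNPC P6 replicate 1, while tenascin-R (Tnr) stood at 0 and 1.12 CPM against 9.77 and 16.3 CPM. The call of Hapln4 was lost without day 1 replicate 2 (1.39, edgeR adjusted p = 0.109) and without giNPC P6 replicate 1 (1.32, adjusted p = 0.094).

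Surface and receptor genes of fibroblasts were lower in 8 of 10 cases. Thy1, a surface marker of fibroblasts and neurons, fell from 898 and 884 CPM to 1.49 and 4.18 CPM (-8.25 ± 0.33, edgeR adjusted p = 4.18e-15), and to -9.20 without giNPC P6 replicate 2, with Brain-NPC at 81.2 CPM. The platelet-derived growth factor receptor Pdgfrb stood at 40.5 and 38.6 FPKM against 0.107 and 0.0596 FPKM (-5.23 ± 0.14, limma adjusted p = 1.88e-13), and its relative Pdgfra at 27.7 and 25.3 FPKM against 2.54 and 3.0 FPKM (-2.87 ± 0.12, limma adjusted p = 1.75e-11). The protease Fap of activated fibroblasts had no reads in the line, at least 241.4-fold lower. Mme was the member that was higher, at 2.78 and 3.36 CPM against 54.0 and 7.93 CPM, and it lost its call without giNPC P6 replicate 1 (1.37, edgeR adjusted p = 0.0977).

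**Figure D4:**
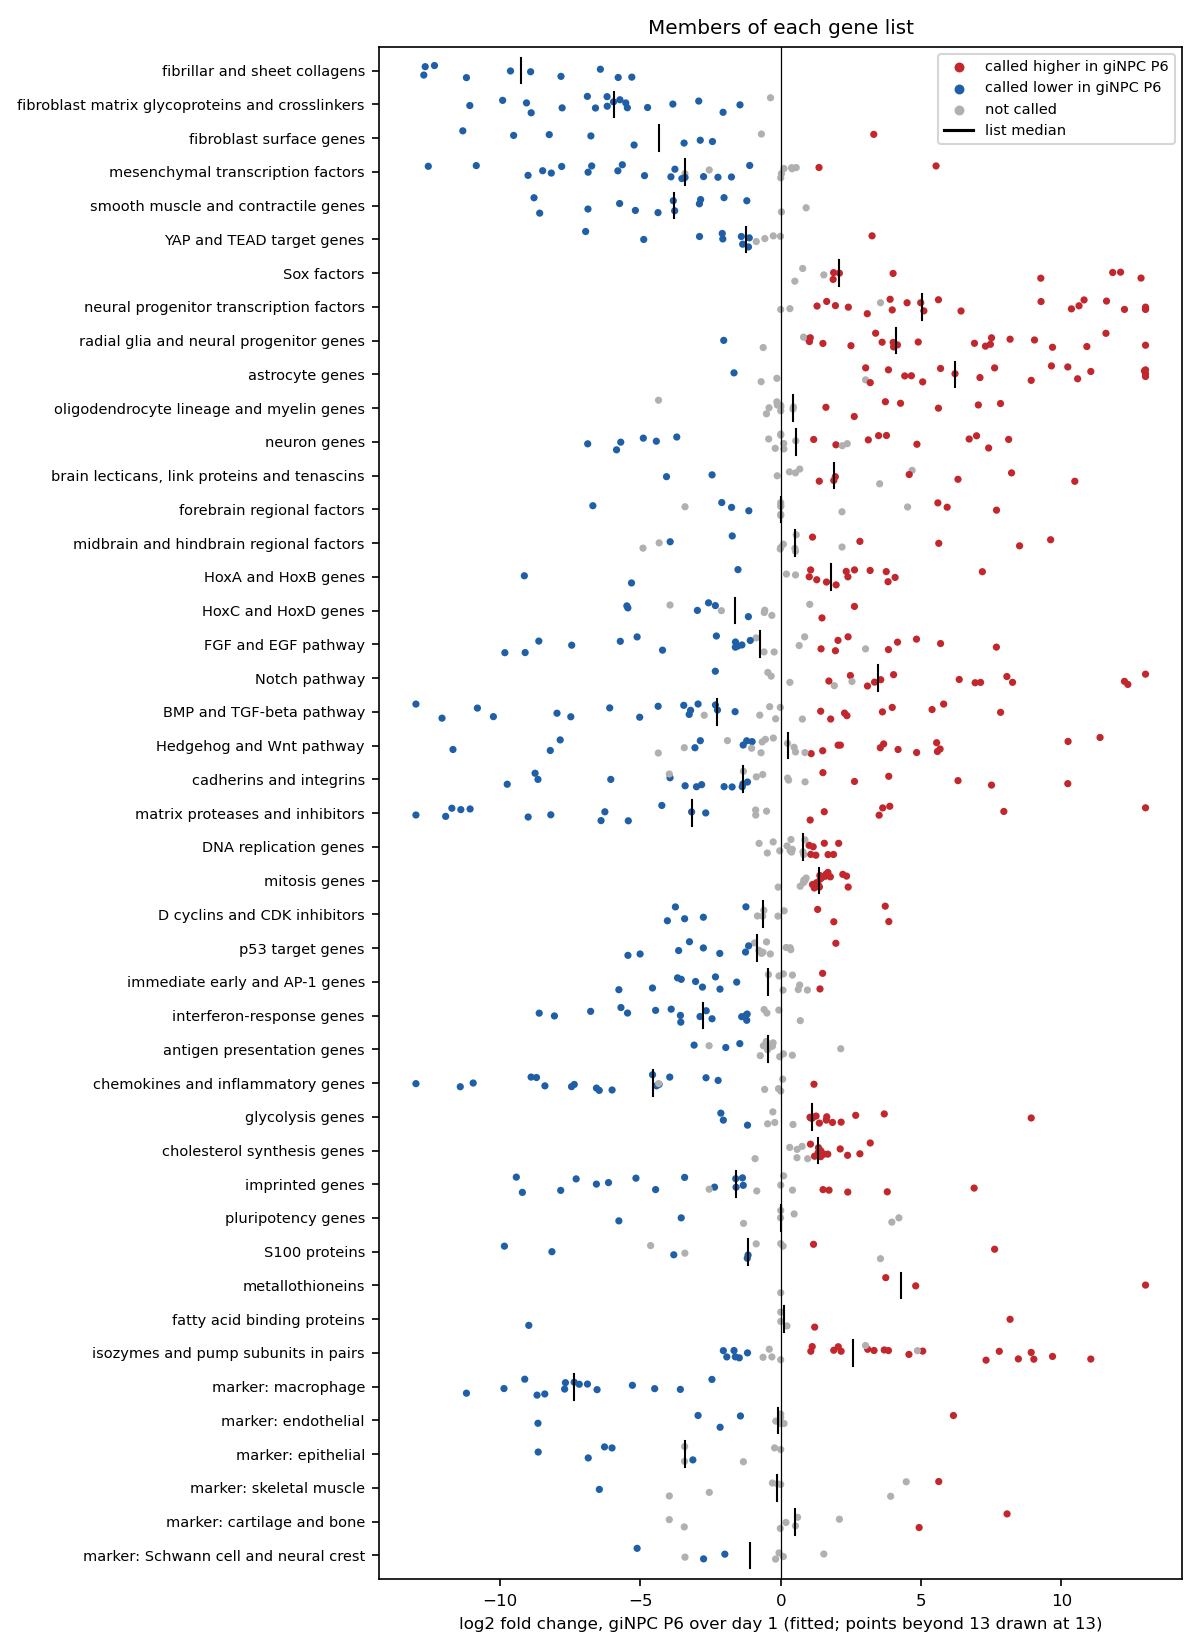
Fitted log2 difference (giNPC P6 minus day 1) of every tested member of the gene lists, one row per list, with the median marked; values beyond 13 in either direction are drawn at 13. The collagens lie wholly below 0 and the neural progenitor factors wholly at or above 0, while the FGF and EGF, Wnt and regional lists have members on both sides.

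Mesenchymal transcription factors were lower in 19 of 29 cases and higher in 2 (median -3.41). Twist2 and Meox1 had no reads in the line, at least 566.1-fold and 171.7-fold below their 128 to 134 and 36.9 to 42.8 CPM at day 1. Snai2 (Slug), a repressor of epithelial genes, stood at 224 and 237 CPM against 1.49 and 0.144 CPM (edgeR adjusted p = 1.28e-12), and Prrx1 at 104 and 105 FPKM against 6.48 and 6.98 FPKM (-3.77 ± 0.11, limma adjusted p = 4.07e-13). Twist1 and Tbx15 were nearly off in 1 library of the line only. Twist1 stood at 67.2 and 73.6 CPM against 21.2 and 0.144 CPM (-2.75 ± 0.64, edgeR adjusted p = 0.000891), with -8.73 without giNPC P6 replicate 1, -1.73 without replicate 2 and no call when just these 4 libraries were fitted (adjusted p = 0.087). Tbx15 stood at 240 and 236 CPM against 41.5 and 0.576 CPM, and its log2 difference of -3.52 became -8.64 without giNPC P6 replicate 1 and -2.51 without replicate 2. Osr2, at 5.16 and 5.83 CPM against 11.4 and 0 CPM, was not called, and without giNPC P6 replicate 1 it was called lower (-7.99, edgeR adjusted p = 2.11e-05).

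Some factors shared by mesenchyme and neural tissue went against the list. Zeb1, a repressor active in progenitors as well as in mesenchyme, rose from 319 and 304 CPM to 865 and 738 CPM (1.36 ± 0.13, edgeR adjusted p = 1.02e-08), and its relative Zeb2 fell from 239 and 216 CPM to 88.7 and 122 CPM (-1.11 ± 0.17), which was -0.89 without giNPC P6 replicate 1. Msx1, a factor of dorsal neural tube and limb, rose from 0.397 and 1.12 CPM to 41.4 and 29.3 CPM (5.54 ± 0.46, edgeR adjusted p = 8.88e-10), with 6.4 without day 1 replicate 2.

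Contractile genes were lower in 12 of 14 cases and none was higher (median -3.80). Smooth muscle actin (Acta2) stood at 103 and 121 CPM against 0 and 0.432 CPM (edgeR adjusted p = 1.53e-13), and the tropomyosin gene Tpm2 at 363 and 367 CPM against 0.993 and 0.865 CPM (-8.59 ± 0.34, edgeR adjusted p = 3.78e-15). Caldesmon (Cald1), which binds actin and tropomyosin, fell from 4430 and 4317 CPM to 233 and 189 CPM (-4.37 ± 0.18, edgeR adjusted p = 4.73e-15). The calls of Cnn1 and Myl9 were lost when either of 2 libraries was left out, with adjusted p between 0.0502 and 0.219. Targets of YAP and TEAD, the factors that read cell tension, counted together with Tead1, Tead2 and Tead3 themselves, were lower in 9 of 14 cases (median -1.25). Ctgf fell by -4.88 ± 0.50 and Cyr61 by -2.08 ± 0.14, while Amotl2, an inhibitor in the same pathway, rose from 5.16 and 9.20 CPM to 39.7 and 96.0 CPM (3.25 ± 0.34, edgeR adjusted p = 2.63e-08), or by 2.48 without giNPC P6 replicate 2.

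Members of the same protease families were called in opposite directions. Of 23 proteases and inhibitors, 13 were lower and 7 higher (median -3.18). Mmp3 (stromelysin 1) stood at 3112 and 2994 CPM at day 1 and at 2.98 and 0 CPM in the line (edgeR adjusted p = 1.48e-14), Mmp13 at 146 and 138 CPM against 0.993 and 0 CPM (edgeR adjusted p = 6.59e-13), and the urokinase gene Plau at 1978 and 1840 CPM against 0.993 and 0 CPM (edgeR adjusted p = 1.40e-16). Membrane-bound Mmp14 fell from 2339 and 2418 CPM to 31.8 and 30.0 CPM (-6.27 ± 0.18, edgeR adjusted p = 4.62e-17). Membrane-bound Mmp15 did the reverse, from 2.58 and 1.57 CPM to 516 and 534 CPM (7.95 ± 0.31, edgeR adjusted p = 3.71e-15), and Adamts9 and Adamts5 rose by 3.63 ± 0.21 and 3.51 ± 0.39. Among inhibitors, Timp2 fell by -3.18 ± 0.16, Timp4 appeared as described above, and Timp3 rose by 1.05 ± 0.16, or 0.82 without giNPC P6 replicate 1. Tissue plasminogen activator (Plat) remained at 840 and 835.5 CPM against 449 and 731 CPM and was not called (-0.51 ± 0.16).

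Mmp3, Mmp10 and Mmp13 are neighbours in a protease cluster on chromosome 9, and in textbook accounts their promoters carry a site for AP-1, the dimer of Fos and Jun proteins. Their promoter windows, from 250 bases before to 50 bases after the annotated start (RefSeq, GRCm38.p6), are shown because all 3 genes fell to at most 3 CPM and because each window held 1 match to TGANTCA, searched on both strands and set in capitals.
Mmp3 (chr9:7445572-7445871, plus strand): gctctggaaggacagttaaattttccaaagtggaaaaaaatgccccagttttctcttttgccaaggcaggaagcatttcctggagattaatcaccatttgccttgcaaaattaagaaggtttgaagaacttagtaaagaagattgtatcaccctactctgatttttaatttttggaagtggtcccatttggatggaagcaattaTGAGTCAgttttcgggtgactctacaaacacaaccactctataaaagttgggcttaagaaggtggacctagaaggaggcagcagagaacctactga
Mmp10 (chr9:7502092-7502391, plus strand): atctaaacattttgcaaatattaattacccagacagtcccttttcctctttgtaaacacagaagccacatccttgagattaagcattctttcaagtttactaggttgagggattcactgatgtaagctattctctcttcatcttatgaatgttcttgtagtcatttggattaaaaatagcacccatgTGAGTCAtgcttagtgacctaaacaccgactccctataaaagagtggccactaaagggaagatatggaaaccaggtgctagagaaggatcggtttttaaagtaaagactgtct
Mmp13 (chr9:7272264-7272563, plus strand): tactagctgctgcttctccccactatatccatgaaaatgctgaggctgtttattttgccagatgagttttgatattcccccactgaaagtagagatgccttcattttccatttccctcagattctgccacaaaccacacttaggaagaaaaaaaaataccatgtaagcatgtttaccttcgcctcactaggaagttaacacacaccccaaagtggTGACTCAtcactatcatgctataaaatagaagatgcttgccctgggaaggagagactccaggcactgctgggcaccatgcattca
The matches begin at positions -46, -63 and -35 from the start. The motif was present in 7.81% of all promoter windows, in 5.97% of the windows of genes tested, in 8.0% of those of genes called lower and in 4.79% of those called higher. A match is a stretch of letters and not a measured binding site.

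The AP-1 genes themselves moved in both directions. Of 19 immediate early and AP-1 genes, 9 were lower and 2 higher (median -0.44). Fosl1, a Fos relative of growing fibroblasts, fell from 46.4 and 49.1 CPM to 1.49 and 2.45 CPM (-4.57 ± 0.50, edgeR adjusted p = 5.91e-08), and Fosl2, Fosb and Junb fell by between -2.79 and -1.57; Junb was at -3.0 without giNPC P6 replicate 2. Fos and Jund rose by 1.49 ± 0.24 and 1.4 ± 0.24, and Jun stood at 429 and 460 CPM against 547 and 393 CPM and was not called (0.08 ± 0.16). The Krüppel-like factors Klf2, Klf4 and Klf6 all fell, Klf4 from 72.4 and 79.2 CPM to 6.29 and 6.63 CPM (-3.55 ± 0.26, edgeR adjusted p = 8.18e-11).

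Among adhesion genes, 13 of 26 cadherins and integrins were lower and 6 higher (median -1.34). The mesenchymal cadherin Cdh11 fell from 1154 and 1060 CPM to 60.4 and 83.2 CPM (-3.94 ± 0.16, edgeR adjusted p = 5.50e-15). Cadherins of neural tissue rose: Cdh20 stood at 0 and 0.449 CPM against 297 and 261 CPM (edgeR adjusted p = 1.62e-15), and Cdh4 at 1.98 and 3.37 CPM against 807 and 164 CPM (7.51 ± 0.57), with 5.95 without giNPC P6 replicate 1 and 8.25 without replicate 2. The fibronectin receptor chain Itga5 fell by -3.41 ± 0.28 and the vitronectin receptor chain Itgb3 from 794 and 759 CPM to 2.32 and 1.30 CPM (-8.75 ± 0.25, edgeR adjusted p = 4.62e-17). Itgb8, a chain of glial integrin, rose from 1.39 and 1.79 CPM to 81.8 and 173 CPM (6.32 ± 0.52, edgeR adjusted p = 8.03e-10), or by 5.68 without giNPC P6 replicate 2. Itga6, a laminin receptor chain used to sort neural stem cells, was at 482 and 430 CPM against 449 and 136 CPM and was not called, but without giNPC P6 replicate 1 it was lower (-1.74, edgeR adjusted p = 2.44e-08).

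The Notch pathway keeps neighbouring progenitors from differentiating: ligands of the Delta and Jagged families on 1 cell open Notch receptors on the next, and the freed receptor domain switches on Hes and Hey genes with the DNA-binding protein RBPJ. Of 20 pathway genes, 14 were higher and 1 lower (median 3.45). The ligand Dll1 stood at 0.793 and 2.02 CPM against 78.3 and 151 CPM (6.36 ± 0.42, edgeR adjusted p = 2.18e-11), with 7.14 without day 1 replicate 2, and Dll3 at 0 and 0.224 CPM against 11.9 and 65.6 CPM (edgeR adjusted p = 2.53e-07). Jag1 was high in 1 library of the line only, at 130 and 17.7 CPM against 15.1 and 11.2 CPM, and without giNPC P6 replicate 1 its call was lost (0.43, edgeR adjusted p = 0.303), while it was 3.30 without replicate 2. The receptor Notch1 rose from 52.96 and 45.3 CPM to 752 and 413.5 CPM (3.56 ± 0.26, edgeR adjusted p = 7.91e-11) and Notch3 from 20.6 and 20.2 CPM to 114 and 234 CPM (3.09 ± 0.28), or 2.48 without giNPC P6 replicate 2. Notch2, the receptor most expressed at day 1, stood at 175.5 and 160 CPM against 126 and 139 CPM and was not called (-0.34 ± 0.14).

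Targets of the pathway divided in the same way. Hes5, the target most tied to neural progenitors, had no reads at day 1 and stood at 86.8 and 123 CPM in the line, at least 336.4-fold higher. Hey1 (0 against 212 and 252 CPM) and the feedback inhibitor Nrarp (0 against 99.2 and 129 CPM) were at least 740.2-fold and 364.7-fold higher. Hes1, a target used in many tissues, stood at 59.1 and 78.1 CPM against 72.8 and 98.9 CPM and was not called (0.33 ± 0.24, edgeR adjusted p = 0.258). The fringe genes Lfng and Rfng, which sugar-coat the receptors, rose by 4.02 ± 0.20 and 1.72 ± 0.24. The single member that fell, Heyl, was at about 2 CPM at day 1 and lost its call without any of 3 libraries (adjusted p between 0.0632 and 0.194). The Hes5 promoter window (RefSeq, GRCm38.p6) is shown because Hes5 went from no reads to a level near the 87.5 CPM of Brain-NPC and because its window held 2 matches to TGGGAA, the core letters bound by RBPJ, set in capitals and searched on both strands.
Hes5 (chr4:154960673-154960972, plus strand): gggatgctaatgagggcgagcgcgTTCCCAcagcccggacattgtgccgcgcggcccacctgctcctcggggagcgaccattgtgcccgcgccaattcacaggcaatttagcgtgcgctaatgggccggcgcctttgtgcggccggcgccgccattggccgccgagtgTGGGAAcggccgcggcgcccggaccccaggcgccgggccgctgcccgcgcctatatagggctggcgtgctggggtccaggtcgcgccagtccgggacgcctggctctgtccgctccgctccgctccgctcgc
The letters were found in 25.56% of all promoter windows, in 23.69% of those of genes called higher and in 23.27% of those called lower, and the window of Nrarp held none.

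Receptors and ligands of the FGF and EGF families were called in both directions. Of 28 genes, 9 were higher and 13 lower (median -0.74). The receptor Fgfr1 fell from 87.1 and 89.7 FPKM to 34.0 and 23.4 FPKM (-1.61 ± 0.16, limma adjusted p = 4.12e-07), while Fgfr3, the receptor of ventricular zone cells and astrocytes, stood at 0.0776 and 0.126 FPKM against 47.4 and 66.4 FPKM (5.70 ± 0.16, limma adjusted p = 3.43e-13) and Fgfr2 rose by 2.04 ± 0.19. The EGF receptor gene Egfr rose from 7.06 and 7.36 FPKM to 41.5 and 43.2 FPKM (2.40 ± 0.15, limma adjusted p = 1.78e-09) and Erbb4 from 0.198 and 0.224 CPM to 35.6 and 59.8 CPM (edgeR adjusted p = 6.18e-10). Ligands made by mesenchyme fell: Fgf7 and Fgf10, at 36.3 to 54.5 CPM at day 1, had 1 read each in the line. Areg, a ligand of Egfr, fell from 300.3 and 299 CPM to 1.49 and 1.87 CPM (-7.45 ± 0.39, edgeR adjusted p = 3.81e-13), and Ereg, Btc, Hbegf and Nrg1 fell too, Hbegf to under the 2-fold threshold without giNPC P6 replicate 1 (-0.74). Fgf1 and Tgfa rose instead, Fgf1 from 25.2 and 18.6 CPM to 365 and 265 CPM (3.84 ± 0.21, edgeR adjusted p = 5.74e-13). The feedback genes Dusp6, Spred1 and Spry4 fell by between -1.62 and -1.38, and Spry1 rose by 1.44 ± 0.24 (0.90 without giNPC P6 replicate 1). The low-level calls of Fgf2 and Erbb3 were lost without a single library (adjusted p between 0.0661 and 0.254).

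In the BMP and TGF-beta pathway 16 of 31 genes were lower and 9 higher (median -2.26). On the TGF-beta side, the ligand Tgfb1 fell from 291 and 295 CPM to 1.82 and 1.44 CPM (-7.48 ± 0.26, edgeR adjusted p = 5.83e-16), and the receptor Tgfbr2 from 50.03 and 47.5 FPKM to 2.43 and 0.689 FPKM (-4.37 ± 0.23, limma adjusted p = 2.65e-10). Inhba, the activin A chain, stood at 214 and 211.5 CPM against 0.166 and 0.144 CPM. On the BMP side, the ligand Bmp7 rose from 2.38 and 1.12 CPM to 135 and 67.3 CPM (5.81 ± 0.51, edgeR adjusted p = 1.87e-09), or by 6.47 without day 1 replicate 1, and Bmp2 fell by -6.09 ± 0.32. The targets Id1, Id2, Id3 and Id4, which hold back differentiation, all rose: Id3 stood at 2.98 and 5.16 CPM against 159 and 180 CPM (5.39 ± 0.41, edgeR adjusted p = 1.86e-10). Among the antagonists, Grem1 was absent from the line as given above, and Chrd and Nog were higher, Nog from no reads to 1.82 and 7.93 CPM (at least 16.1-fold). Tgfb2 was the TGF-beta ligand that rose (1.42 ± 0.24), to 0.98 without giNPC P6 replicate 1.

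Hedgehog and Wnt genes were called in both directions, 13 of 33 higher and 8 lower (median 0.24). Ptch1, the Hedgehog receptor and itself a target, rose from 4.17 and 4.49 CPM to 115 and 134 CPM (4.84 ± 0.30, edgeR adjusted p = 7.35e-12), although the ligand gene Shh stood under 1 CPM in all 4 libraries and the target Gli1 had no reads in the line. Axin2, a target of Wnt, rose from 1.98 and 1.79 CPM to 112 and 72.3 CPM (5.58 ± 0.30, edgeR adjusted p = 5.05e-13). The neural ligands Wnt7a (0 against 55.8 and 59.4 CPM, at least 182.7-fold), Wnt7b and Wnt4 and the receptors Fzd3, Fzd9 and Fzd10 rose. The inhibitors Dkk2 (544 and 609 CPM against 0.331 and 0 CPM) and Dkk3 fell, while the inhibitor Sfrp2 rose by 4.18 ± 0.61, or by 5.51 without day 1 replicate 1 and 3.56 without replicate 2. The low-level call of Wnt2 was lost without any of 3 libraries (adjusted p between 0.0649 and 0.0876).

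Genes that mark positions along the body axis did not follow the Brain-NPC pattern. Hox genes, which give caudal hindbrain, spinal cord and trunk tissues their position and are silent in forebrain, all had a Brain-NPC mean under 1 (CPM, or FPKM for Hoxa10 and Hoxb3). Of 32 tested, 26 were at 1 or more in both day 1 libraries, 27 in both giNPC P6 libraries and 24 in all 4. In the HoxA and HoxB clusters 13 of 18 were higher and 3 lower (median 1.80), and in HoxC and HoxD 2 of 14 were higher and 6 lower (median -1.63). Of the genes of groups 1 to 8, 12 of 14 rose in HoxA and HoxB, and in HoxC and HoxD 2 of 7 rose and 3 fell. Of the 11 genes of groups 9 to 13 over all clusters, 1 rose and 5 fell.

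Hoxa5 stood at 7.34 and 9.65 CPM at day 1 and at 166 and 63.8 CPM in the line (3.76 ± 0.36, edgeR adjusted p = 1.33e-08), with 2.92 without giNPC P6 replicate 1. Hoxa2, the most rostral Hox factor, stood at 1.98 and 5.38 CPM against 73.2 and 30.3 CPM (3.83 ± 0.46, edgeR adjusted p = 4.06e-07), with 4.68 without day 1 replicate 2 and 3.06 without giNPC P6 replicate 1. In both genes the libraries of the line lay above day 1 but apart from each other. Hoxb9 fell from 133.5 and 140 CPM to 4.30 and 2.59 CPM (-5.32 ± 0.41, edgeR adjusted p = 4.07e-10), and Hoxa11, a factor of limb and kidney, from 13.1 and 11.2 CPM to no reads, at least 52.83-fold. Hoxc10 fell by -2.97 ± 0.62, or -4.22 without giNPC P6 replicate 1 and -2.28 without replicate 2.

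The caudal HoxC genes split the line into its 2 libraries. Hoxc8 stood at 122 and 154 CPM at day 1 and at 24.2 and 161 CPM in the line, and it was not called (-0.57 ± 0.50, edgeR adjusted p = 0.353) but fell without giNPC P6 replicate 2 (-2.51, adjusted p = 3.40e-05) and was 0.22 without replicate 1. Hoxc9 and Hoxd8 showed the same, with -2.0 and -1.31 without that library. Hoxc6 stood at 149 and 165 CPM against 4.97 and 47.0 CPM (-2.57 ± 0.47, edgeR adjusted p = 7.13e-05), with -1.74 without giNPC P6 replicate 1 and -4.97 without replicate 2. The calls of Hoxa9 (0.63, edgeR adjusted p = 0.125) and Hoxb8 (0.60, adjusted p = 0.0698) were lost without giNPC P6 replicate 2, and those of Hoxb3, Hoxb5, Hoxc4, Hoxd4, Hoxd11 and Hoxd13 without at least 1 of the 4 libraries. With 1 library left out, 11 to 12 HoxA and HoxB genes were higher and 3 to 7 HoxC and HoxD genes were lower.

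**Figure D5:**
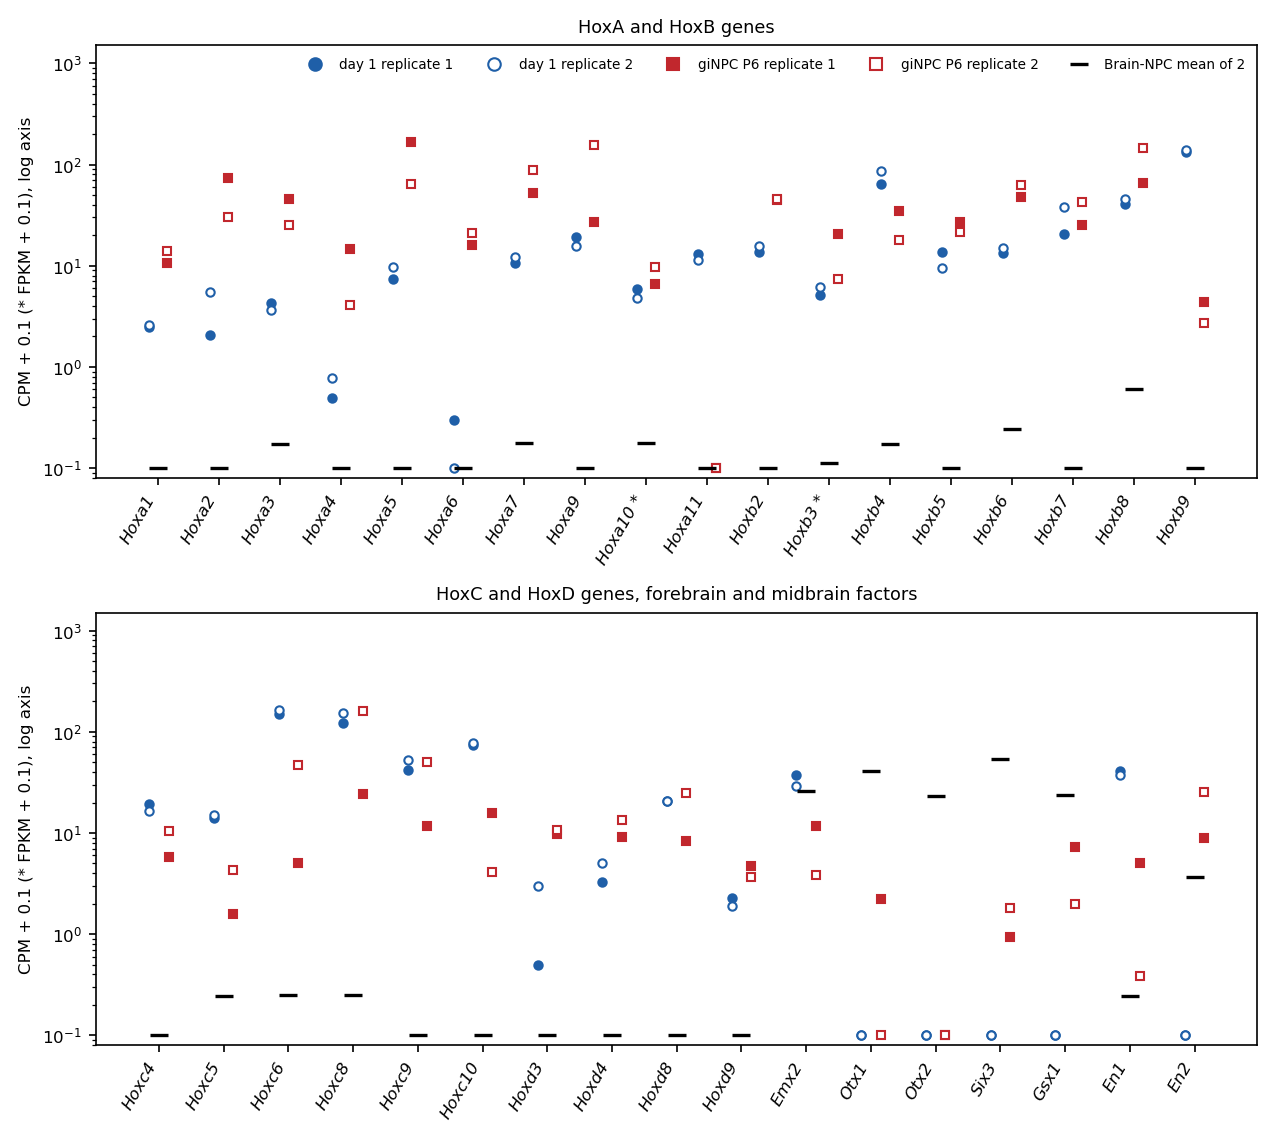
Level of regional and Hox genes in each library as value + 0.1 on a log axis (CPM, or FPKM where starred), with symbols as in the plot of selected genes by library. Hox genes sit above 1 in most of the 4 libraries while the Brain-NPC dash lies under 1, and Otx2 shows the reverse.

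Some forebrain factors were near or at 0 in the line, while Emx2 stood at 11.8 and 3.75 CPM there and 36.9 and 28.9 CPM at day 1. Otx2, a factor of forebrain and midbrain, had no reads in any of the 4 libraries and stood at 23.2 CPM in Brain-NPC. Of 15 such genes 3 were higher and 4 lower, and the calls of Six3 and Otx1, at 2.15 CPM or less in the line, were lost without a single library. Lhx2, a factor of forebrain and other progenitors that was listed with the progenitor factors, was the exception in level, with no reads at day 1 and 106 and 29.4 CPM in the line, at least 206.6-fold higher.

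Of 16 midbrain and hindbrain factors, 5 were higher and 2 lower (median 0.51). Gbx2, which sets the front of the hindbrain, and En2, a factor of the midbrain-hindbrain border, had no reads at day 1 and stood at 9.77 and 6.05 CPM and at 8.77 and 25.1 CPM in the line, at least 24.64-fold and 55.38-fold higher. Pax3, a dorsal factor, stood at 0 and 0.194 FPKM against 4.75 and 9.38 FPKM (2.82 ± 0.21, limma adjusted p = 1.30e-08), and at 0.167 FPKM in Brain-NPC. En1 fell from 41.3 and 37.5 CPM to 4.97 and 0.288 CPM (-3.94 ± 0.81), or -6.99 without giNPC P6 replicate 1 and -2.98 without replicate 2. Pax7 was called on 1 library of the line (0 and 2.02 CPM) and lost its call without it. Irx1, Irx2 and Irx3 stood at 15.1 CPM or more in all 4 libraries and were not called, and Irx3 rose without giNPC P6 replicate 2 (1.11, edgeR adjusted p = 0.00838).

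The cell division programme was higher in the line, more in mitosis than in DNA replication by count. Of 21 mitosis genes 15 were higher and none lower (median 1.38), and of 20 replication genes 8 were higher and none lower (median 0.81). Mki67, the Ki-67 proliferation antigen, rose from 245 and 220 CPM to 641 and 526 CPM (1.33 ± 0.16, edgeR adjusted p = 2.57e-07), and Aurkb, a kinase of chromosome segregation, from 14.3 and 18.2 CPM to 83.6 and 81.1 CPM (2.35 ± 0.23, edgeR adjusted p = 1.41e-08). The sliding clamp Pcna rose from 48.4 and 54.7 CPM to 166.5 and 136 CPM (1.55 ± 0.16, edgeR adjusted p = 2.30e-08), while its helicase partners Mcm4 and Mcm6 stood at 187 and 187 against 160 and 150 CPM and at 242 and 232 against 178 and 163 CPM, changes of less than 2-fold. For most of these genes Brain-NPC was higher still, as with Mki67 at 1122 CPM and Pcna at 353 CPM. With 1 library left out, 6 to 9 replication genes were higher.

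The inhibitors Cdkn2b and Cdkn1a, which stop dividing cells, fell from 235 and 225 CPM to 15.2 and 18.7 CPM (-3.75 ± 0.20, edgeR adjusted p = 5.38e-13) and from 287.5 and 303 FPKM to 27.5 and 66.4 FPKM (-2.76 ± 0.28, limma adjusted p = 4.48e-07); Cdkn1a was at -2.14 without giNPC P6 replicate 1 and -3.38 without replicate 2. Cdkn1b and Cdkn2c, inhibitors of the same kinases, rose by 1.89 ± 0.20 and 3.72 ± 0.29. Cyclin D1 (Ccnd1) fell from 1487 and 1568 CPM to 535 and 758 CPM (-1.24 ± 0.16), while Brain-NPC stood at 2536 CPM. Ccnd2 was at 724 and 694 CPM against 644 and 264 CPM and was called lower only without giNPC P6 replicate 1 (-1.42). In a list of 18 genes, the p53 gene Trp53 and targets of p53, 8 were lower and 1 higher (median -0.85). Among the lower ones were Mdm2, the p53 ligase, which fell from 831 and 797 CPM to 91.4 and 79.5 CPM (-3.25 ± 0.17, edgeR adjusted p = 4.37e-13), and Ccng1 (-3.64 ± 0.20). Trp53 itself was at 30.7 and 26.9 FPKM against 38.8 and 35.5 FPKM and was not called.

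Markers of macrophages were present at day 1 and nearly absent from the line. All 15 were lower (median -7.36), their summed FPKM was 1072 and 1089 at day 1 and 26.1 and 3.10 in the line, and 11 of 15 were under 1 (CPM or FPKM) in both libraries of the line; 4 were at 0 in giNPC P6 replicate 1 and 9 in replicate 2. Csf1r, which macrophages need to survive, stood at 102 and 106 CPM against 0.497 and 0 CPM, and C1qa, a complement chain, at 117 and 108 CPM against 0.662 and 0 CPM. Lysozyme (Lyz2) stood at 1573 and 1485 CPM against 21.0 and 0.721 CPM, and remained the highest of these in giNPC P6 replicate 1. The label of day 1 cells as fibroblasts was thus met by their collagen genes, beside a measurable level of macrophage markers.

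Genes of innate immunity fell alongside, and the part of the macrophage markers in this was not tested. Of 23 chemokine and inflammation genes 17 were lower and 1 higher (median -4.57), and of 20 interferon-response genes 16 were lower and none higher (median -2.77). The chemokine gene Ccl2 stood at 359 and 341 CPM at day 1 and at 0.331 and 0 CPM in the line (edgeR adjusted p = 4.20e-15), and Cxcl12, a chemokine of stromal cells, at 42.4 and 47.6 FPKM against 1.46 and 0.524 FPKM (-4.57 ± 0.18, limma adjusted p = 1.05e-11). Ptgs1 and Ptges of prostaglandin synthesis fell with Ptgs2, by -8.70 ± 0.36 and -8.90 ± 0.26. The viral RNA sensor gene Ddx58 fell from 168 and 144 CPM to 10.4 and 15.9 CPM (-3.56 ± 0.21, edgeR adjusted p = 2.58e-12), and Bst2, an antiviral tether, from 28.8 and 41.3 CPM to 1.16 and 0.432 CPM (-5.46 ± 0.39), with -6.26 without giNPC P6 replicate 1. Ifit2 lost its call without day 1 replicate 1 (-1.16, edgeR adjusted p = 0.065) and without giNPC P6 replicate 1 (-0.58, adjusted p = 0.177), and Cx3cl1, the member that rose (1.19 ± 0.31), fell under 2-fold without either replicate 2. Genes of antigen presentation changed less, with 3 of 15 lower (median -0.47): B2m fell by -1.46 ± 0.18, and H2-K1 stood at 63.7 and 57.4 CPM against 24.3 and 54.2 CPM and was called lower only without giNPC P6 replicate 2 (-1.31).

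Metabolic genes moved with smaller steps than matrix genes. Of 20 glycolysis genes, 13 were higher and 3 lower (median 1.13), a count of 9 to 13 higher with 1 library left out. The glucose carrier Slc2a3 rose from 14.1 and 16.6 CPM to 69.9 and 125 CPM (2.67 ± 0.33, edgeR adjusted p = 3.81e-07), whereas Slc2a1 was at 250 and 270.5 CPM against 176 and 273 CPM and was not called. Cholesterol synthesis genes were higher in 12 of 18 cases and none was lower (median 1.34), with Dhcr7, the last enzyme of a branch, at 36.7 and 32.5 CPM against 254 and 235 CPM (2.82 ± 0.18, edgeR adjusted p = 9.85e-12). The Brain-NPC level of Dhcr7 was above that of the line, at 493.5 CPM.

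Of 4 metal-binding metallothioneins 3 rose, and Mt4 had no reads in any of the 4 libraries. Mt1 stood at 182 and 224 CPM at day 1 and at 1133 and 4302 CPM in the line (3.74 ± 0.41, edgeR adjusted p = 7.62e-08), with 4.41 without giNPC P6 replicate 1 and 2.48 without replicate 2. Mt2 stood at 50.6 and 39.5 CPM against 462 and 2069 CPM (4.81 ± 0.50), with 5.52 and 3.36, and the brain member Mt3 appeared as described above. Replicate 2 was the higher for Mt1, Mt2, Mt3 and Apoe alike. Among S100 calcium-binding proteins, S100b of astrocytes rose from 0.595 and 0.897 CPM to 121 and 178 CPM (7.62 ± 0.34, edgeR adjusted p = 2.95e-14), and S100a6 and S100a4 of fibroblasts fell, S100a6 from 2114 and 1909 CPM to 2.65 and 1.73 CPM (-9.85 ± 0.28, edgeR adjusted p = 3.88e-17). Within the fatty acid binding proteins, Fabp4, the fat cell and macrophage member, stood at 51.2 and 48.2 CPM against 0 and 0.144 CPM (edgeR adjusted p = 1.12e-11), Fabp5 rose by 1.21 ± 0.17, and Fabp7 rose as given above.

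Imprinted genes, which are read from 1 parental copy, were lower in 14 of 24 cases and higher in 5 (median -1.60). The growth factor Igf2 fell from 160 and 157 FPKM to 1.31 and 0.225 FPKM (-6.57 ± 0.23, limma adjusted p = 3.24e-12) together with its neighbour H19, from 1536 and 1719 CPM to 12.3 and 2.31 CPM (-7.84 ± 0.37, edgeR adjusted p = 7.77e-14), with -9.45 without giNPC P6 replicate 1 and -7.05 without replicate 2. The noncoding genes of the Dlk1-Meg3 cluster were near 0 in the line as well: Meg3 stood at 97.2 and 101 FPKM against 0.892 and 0.0676 FPKM, and Rian at 681 and 628 CPM against 2.32 and 0 CPM. Brain-NPC was also low for these, at 1.15 FPKM for Igf2, 15.8 CPM for H19 and 0.592 FPKM for Meg3. Mest and Nnat rose, Mest from 34.9 and 35.7 CPM to 328 and 652 CPM (3.80 ± 0.22, edgeR adjusted p = 2.78e-12). Peg3 was at 354 and 319 CPM against 228 and 145 CPM and was called lower only without giNPC P6 replicate 1 (-1.21), and Usp29 lost its call without day 1 replicate 1 or giNPC P6 replicate 1 (adjusted p 0.308 and 0.201).

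Of 8 pluripotency genes tested, Klf2 and Klf4 were lower and the others stood at 2.48 (CPM or FPKM) or less in all 4 libraries; Nanog was too low in the series to be tested. Summed over the list, endothelial markers were at 11.5 and 10.5 FPKM at day 1 and at 5.96 and 7.79 FPKM in the line, where Plvap was the member that rose (0.397 and 0 CPM against 15.1 and 17.9 CPM, edgeR adjusted p = 1.03e-08). The sum of epithelial markers was 42.9 and 41.2 FPKM at day 1 and 0.235 and 0.332 FPKM in the line, with 5 of 10 lower, among them Krt18 (100 and 102 CPM against 0.166 and 0.288 CPM). For the others called lower, Cldn4, Epcam, Krt19 and Krt8, the call was lost without at least 1 of the 4 libraries. Cartilage and bone genes summed to 0.718 and 1.03 FPKM at day 1 and 14.1 and 22.5 FPKM in the line, and Schwann cell and neural crest genes to 29.1 and 26.1 against 30.8 and 22.2 FPKM. Of the 8 latter genes, Ngfr, Cdh19 and Erbb3 fell, and each of these calls was lost without at least 1 of the 4 libraries. Of 9 cartilage and bone genes, Alpl rose from 0 and 0.449 CPM to 42.2 and 82.1 CPM and Col9a1 rose, while Comp and Ibsp had no reads in the line. Myog had no reads in any of the 4 libraries.

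Some called genes differed several-fold between the 2 libraries of the line. Of 3930 called genes with a mean of 10 or more (CPM or FPKM) in the line, 101 differed by over 4-fold between its libraries. With only the 4 libraries fitted, the calls of Ctsc and Tagln2, given next, were lost (edgeR adjusted p 0.286 and 0.21). The lysosomal protease gene Ctsc had the largest ratio, with 3.31 and 149 CPM in the line against 224 and 235 CPM at day 1 (-1.58 ± 0.63, edgeR adjusted p = 0.0351), and its call was lost without either day 1 library (adjusted p 0.0879 and 0.098) and fell under 2-fold without giNPC P6 replicate 1 (-0.62), while it was -6.11 without replicate 2. Tagln2, an actin-binding protein gene, behaved alike, with 14.6 and 193 CPM against 289 and 300 CPM (-1.5 ± 0.53), -0.61 without giNPC P6 replicate 1 and -4.33 without replicate 2, and no call without either day 1 library (edgeR adjusted p 0.0583 and 0.0635). The motor protein gene Kif5c stood at 143 and 9.94 CPM against 5.95 and 7.40 CPM and lost its call without giNPC P6 replicate 1 (0.58, edgeR adjusted p = 0.132), and was 4.43 without replicate 2. Fras1, a basement membrane protein gene, stood at 268 and 29.5 CPM against 4.17 and 3.14 CPM (5.33 ± 0.70), with 3.0 without giNPC P6 replicate 1 and 6.18 without replicate 2, and the interferon-induced Ifitm3 at 30.3 and 200 CPM against 584 and 588 CPM (-2.34 ± 0.43), with -1.55 and -4.27.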

How the data were processed

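Total RNA was enriched with oligo(dT) and sequenced in pairs of 100 bases, per the labels' protocols. The deposited counts per transcript and the deposited FPKM values were made by the authors with TopHat2 2.0.12, HTSeq 0.6.0 and Cufflinks 2.2.1 on mm9, per the submitters' processing notes; these notes give no strand or multi-mapping setting, so antisense partners, overlapping genes and close copies in these counts are uncertain. Counts were summed per gene symbol and reads without a symbol (0.0866% to 0.158%) and sex chromosome genes were left out. Among several-transcript genes, 2456 of 2647 with 1000 or more reads to be expected from FPKM had under 0.5 of them, so FPKM was used for these. edgeR 4.0.16 (TMM, filterByExpr, all 22 libraries in 1 model, 11 residual degrees of freedom) tested counts; limma 3.58.1 tested log2(FPKM + 1) for genes at 1 FPKM or more in 2 libraries (R 4.3.3). Each was adjusted by Benjamini-Hochberg over its own table and tested on simulated data. Intervals and floors cover counting error only. Members and gene lists were chosen with earlier results of these data known. Genes outside the lists were named by rule: among called genes without overlap, the 10 highest and 10 lowest changes from counts (mean of 50 CPM or more in the higher group) and 5 of each from FPKM (10 FPKM or more), the 5 largest gains and losses of FPKM, and the 6 largest ratios between giNPC P6 libraries. Alternatives were another tool, unit, filter, pseudocount or scaling, the replicate block, kept sex chromosomes, only 4 libraries, and leaving out each library. Some list members are counted with their lists but not reported here by name.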

Additional observations from a re-analysis of the deposited data

How the results depend on the processing

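The counts of called genes stayed within 1.5 times under the other tool (DESeq2, 2684 higher and 2717 lower among 1-transcript genes), no filter, only the 4 libraries, kept sex chromosomes, pseudocount 0.1 and a 75th percentile scaling. Of 6548 calls, 6495 were made again in the same direction without a filter, 5816 with only the 4 libraries and 5925 to 5986 with 1 library left out. Without 1 library, 2611 to 2760 1-transcript genes were higher and 2487 to 2543 lower, and 670 to 685 several-transcript genes were higher and 412 to 426 lower. Exchanging the units, FPKM for 1-transcript genes and the incomplete counts for the others, gave 1641 lower 1-transcript genes and 331 higher and 165 lower several-transcript genes; it shifted the median of all genes to 0.12 and repeated 4119 of 6548 calls. Under that exchange 75 of the 6548 calls took the other sign, among the genes of the lists Qk (-0.046), Snrpn (-0.36) and Ttk (-0.69), and the cause was not tested. The fitted sign also changed for 12 of the 6548 without giNPC P6 replicate 1. It changed for 1 without giNPC P6 replicate 2, 1 without day 1 replicate 1 and 0 without day 1 replicate 2. Osr2 was -7.99 without giNPC P6 replicate 1 and 1.06 without replicate 2; the first value rests on a library without reads. Same-numbered libraries showed no sign of pairing (correlation of their deviations 0.02), but 1 correlation between 2 groups of 2 libraries cannot settle whether they were paired. The fit with the replicate block called 2804 higher and 2591 lower 1-transcript genes, and 679 and 420 of the others. Depth limits genes of a few reads, and the paired libraries allow no separation of library and culture.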

Other observations

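Hoxb7, Hoxb8 and Hoxc8, factors of trunk position, stood at 20 CPM or more in each of the day 1 and giNPC P6 libraries and under 1 CPM in both Brain-NPC libraries. They were chosen after their values were seen, and the difference from Brain-NPC was not tested. Hoxb7 (chr11:96147960-96151477, mm9) stood at 20.6 and 38.1 CPM against 25.2 and 42.1 CPM, a log2 difference of 0.20 with a 95% confidence interval of -0.43 to 0.84. The interval includes no change and does not show that the levels were equal. Hoxb8 was called higher (1.28 ± 0.30, edgeR adjusted p = 0.000815), a call that rests on giNPC P6 replicate 2, and Hoxc8 stood at 24.2 and 161 CPM in the line.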
